A study of Homo sapiens with 39 samples.

Results

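Phase I enzymes of the cytochrome P450 (CYP), aldehyde dehydrogenase (ALDH), alcohol dehydrogenase (ADH), aldo-keto reductase (AKR), flavin monooxygenase (FMO) and carboxylesterase (CES) families were followed across 13 groups of the human colorectal carcinoma line HCT116. Genes were taken by their symbols, with CYP51A1, an enzyme of cholesterol synthesis, left out. This gave 102 genes of the 45435 in the tables, and the 37 whose mean over the 39 libraries was 1 TPM or more are described in detail. TPM is a transcript level scaled for length and for the library's total, so levels can be set side by side between genes. The parental group was the HCT116 Flp-In host line without an HNF4A construct, and the other 12 groups were stable lines, 1 for each isoform, carrying 1 of the isoforms 1 to 12 of the transcription factor HNF4A, fused to GFP. Every group had 3 libraries, and all cells, the parental cells included, received 2.5 µg/ml doxycycline for 48 h in medium without the selection antibiotics. Earlier culture was different: the parental cells grew with blasticidin S and zeocin, and the lines with blasticidin S and hygromycin B. No group expressed GFP alone, so GFP, the earlier antibiotics, the derivation of a line and the isoform cannot be told apart. The labels do not say that the 3 libraries of a group came from separate cultures, so p-values measure only the spread between these libraries.

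Phase I enzymes put a reactive group into lipophilic compounds by oxidation, reduction or hydrolysis. The P450s of the lowest family numbers act on drugs and other foreign compounds, while others make or clear steroids, retinoids, vitamin D and fatty acids. ALDHs oxidise reactive aldehydes to acids, AKRs reduce aldehydes and ketones, and CESs cleave esters. HNF4A is a nuclear receptor of liver and gut and is known as an activator of many P450 genes in hepatocytes. Its isoforms come from 2 promoters and from alternative splicing. In the standard nomenclature, which the labels do not spell out, isoforms 1 to 6 are products of promoter P1 and isoforms 7 to 12 of promoter P2. Isoforms 4 to 6 carry an alternative first part (exon 1B). Isoforms 2, 5, 8 and 11 have a short insertion near the C-terminus, and isoforms 3, 6, 9 and 12 have a shortened C-terminus.

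HNF4A mRNA, summed over its rows, checked only that the lines differ from the parental cells, and not which isoform a line carries. Parental cells had 31.5 TPM ± 0.589 (SD, n = 3), while the group means of the lines ranged from 613.5 TPM (isoform 2) to 1071 TPM (isoform 6). Replicate 1 of isoform 3 stood apart from its group with 406.9 TPM of HNF4A, and the calls of phase I genes that involve isoform 3 are given with and without it. Of 10 colonic epithelial markers, 6 were at 1 TPM or more in the parental cells, while CDX1, KRT20, LGALS4 and VIL1 were under 1 TPM. The summed level of these 10 markers was 3061 to 3188 TPM in the parental libraries. It was highest in isoform 1 (5138 to 5648 TPM), where LGALS4 and VIL1 passed 1 TPM, and reached its lowest value in isoform 6 (2491 to 2778 TPM). Of 10 hepatocyte markers, 1 reached 1 TPM in the parental cells and at most 2 did in any line. The summed level of 8 leukocyte markers was 6.08 to 7.48 TPM in the parental libraries and 34.1 to 36.8 TPM in isoform 1. Most of this was CD68, a lysosomal protein (3.85 TPM in parental cells and 33.1 TPM in isoform 1 on average), with PTPRC, CD3E, CD14, LYZ, ITGAM and CD79A under 1 TPM in every group. The part of these markers in the results was not tested. In bulk RNA, fewer cells with a transcript and less of it per cell cannot be told apart.

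Most phase I genes had low levels in these cells. The 102 genes together made up between 0.124% and 0.141% of the TPM of a group, with sums of 1218 to 1465 TPM per library. By family, 15 of 55 CYP, 12 of 18 ALDH, 6 of 12 AKR, 2 of 5 CES, 1 of 7 ADH and 1 of 5 FMO genes had a mean of at least 1 TPM. Another 59 genes did not reach 1 TPM in any group mean, and 26 of them stayed under 0.1 TPM in every group mean. The highest levels were those of enzymes of general metabolism and aldehyde clearance: AKR1B1 (aldose reductase, 251.9 TPM in the parental cells), ALDH1A3 (a retinaldehyde dehydrogenase, 193.4 TPM), ADH5 (the formaldehyde-clearing class III alcohol dehydrogenase, 148.8 TPM), ALDH18A1 (proline synthesis, 104.6 TPM) and AKR1A1 (aldehyde reductase, 101.9 TPM). The highest P450 means in the parental cells were those of CYP2R1, a vitamin D 25-hydroxylase, at 16.4 TPM, and CYP27B1, which makes active vitamin D, at 15.3 TPM. The members just above the 1 TPM minimum were CYP26A1 (1.03 TPM over all libraries), CYP1A2 (1.06 TPM) and AKR7A3 (1.30 TPM), and those just below it were CYP39A1 (0.9996 TPM), CYP2D7 (0.946 TPM) and CYP2D6 (0.879 TPM).

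**Figure D1:**
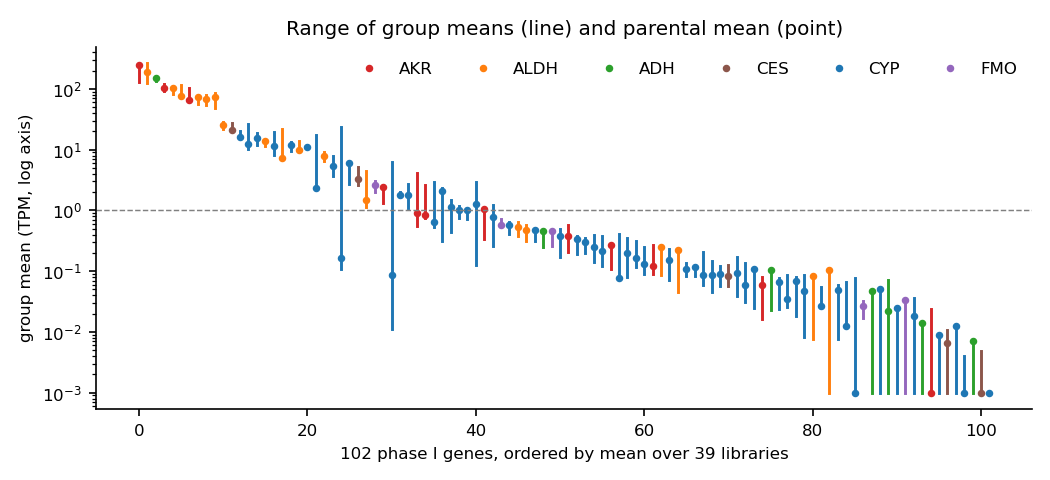
Levels of the 102 phase I genes, ordered along the x axis by their mean over the 39 libraries. Each vertical line spans the lowest to the highest of the 13 group means in TPM (log axis, values of 0 drawn at the bottom), the point is the parental mean, colours give the family, and the dashed line is at 1 TPM. The long vertical lines near the middle are genes such as CYP17A1 and CYP11A1, whose parental means were 0.164 and 0.0861 TPM and whose highest group means were 23.9 and 6.31 TPM.

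Each line was set against the parental cells to find the genes that differ when 1 isoform is produced. Log2 values of TPM + 1 were fitted with limma over all 15003 genes at 1 TPM or more, and a call required a Benjamini-Hochberg adjusted p below 0.05 and a log2 fold change of 1 or more in either direction. On this scale the fold change of genes at low TPM is understated, and all 12 comparisons share the same 3 parental libraries. Isoform 1 had 5 of 37 members called, against 4.52% of all genes tested, with 4 higher (background 2.74%) and 1 lower (1.78%). Isoform 2 had 6, against 3.73%, with 5 higher (2.36%) and 1 lower (1.37%). Isoform 7 had 5, against 2.08%, with 4 higher (1.12%) and 1 lower (0.96%). Isoform 8 had 5, all higher, against 1.41%, of which 0.94% higher and 0.473% lower. Isoform 11 had 5, against 1.7%, with 4 higher (1.05%) and 1 lower (0.653%). Isoform 10 had 3, all higher, against 1.44%, of which 1.13% higher and 0.313% lower. Of the 9 members called in any line, 4 had parental means under 1 TPM (CYP11A1 0.0861, CYP17A1 0.164, CYP1A2 0.632 and AKR1C3 0.919 TPM). CYP11A1, CYP17A1, CYP1A2 and AKR1C3 reached the 1 TPM minimum through the lines where they were high. CYP26A1, the member called lower, reached it through the parental cells and isoforms 3 to 6, whose group means were above 1 TPM. The shares above and below therefore do not stand for the family as a whole.

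A single member was called, in each case higher, in 4 lines. Of all genes, 0.807% were called in isoform 3, made up of 0.653% higher and 0.153% lower. For isoform 4 this was 0.54%, from 0.227% higher and 0.313% lower. Isoform 9 had 0.827%, from 0.387% and 0.44%, and isoform 12 had 0.573%, from 0.44% and 0.133%. Isoform 5 had 0 members called by limma, against 0.293% of all genes (0.153% higher, 0.14% lower), and 12 members at an unadjusted p under 0.05. Isoform 6 also had 0, against 0.247% (0.0933% higher, 0.153% lower), and 9 members at an unadjusted p under 0.05. The authors' deposited table also held 0 members past both limits in these lines.

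Many members passed the adjusted p without reaching the minimum fold change, as did many genes at large. For isoforms 1 to 6, 30, 23, 13, 10, 7 and 8 of the 37 members had an adjusted limma p under 0.05, against 58.5%, 55.3%, 26%, 16.3%, 14.8% and 10.1% of all genes. For isoforms 7 to 12 these were 22, 18, 11, 23, 17 and 10 members, against 39.6%, 34.4%, 22.7%, 37.3%, 38.5% and 14.6%. Over the 12 lines there were 33 calls (background 1.51% of all pairs of gene and line), spread over 9 members, and 28 of the 37 were called in no line. The background for a call in at least 1 line was 6.57% of all genes. Of the 9 members, 8 were called higher (CYP17A1, CYP11A1, CYP1A1, CYP1A2, CYP2S1, ALDH3B1, ALDH3A1 and AKR1C3) and 1 lower (CYP26A1). The median log2 fold change of the 37 members stayed between -0.051 (isoform 3) and 0.087 (isoform 10), and that of all genes tested between -0.107 (isoform 1) and 0.012 (isoform 5).

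**Figure D2:**
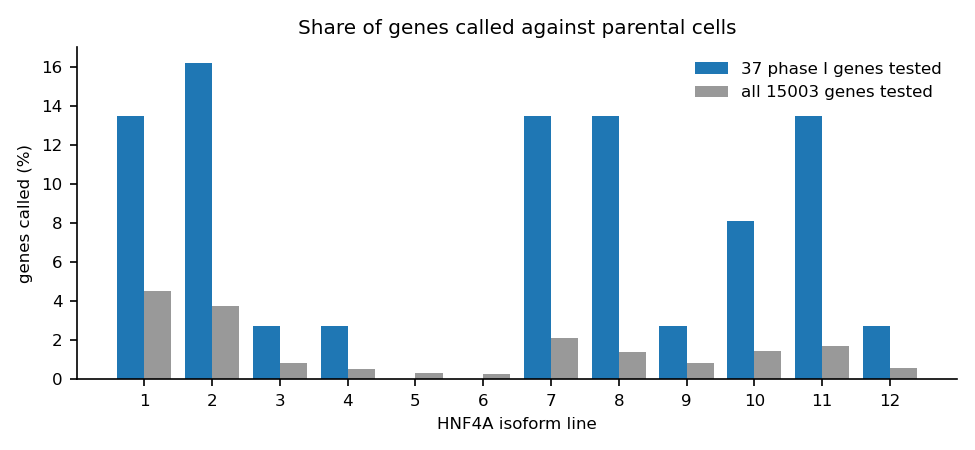
Share of genes called against the parental cells in each HNF4A isoform line, in percent, for the 37 phase I genes tested and for all 15003 genes tested. Bars of the phase I genes reach 13.5% in isoforms 1, 7, 8 and 11 and 16.2% in isoform 2 and are at 0 in isoforms 5 and 6.

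**Figure D3:**
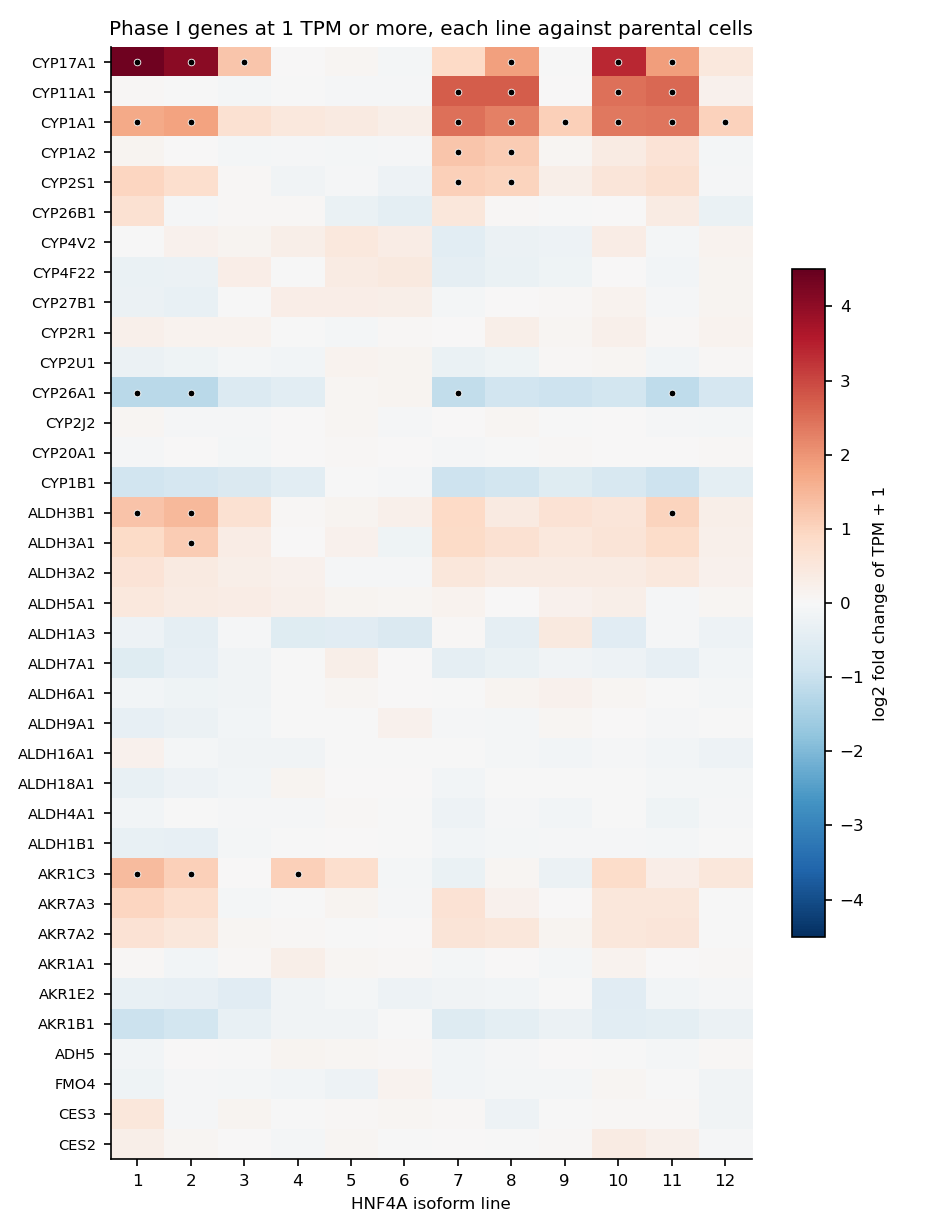
Log2 fold change of TPM + 1 against the parental cells for the 37 phase I genes (rows, grouped by family) in the 12 isoform lines (columns), red for higher and blue for lower. A dot marks a call. The dots of CYP11A1 and CYP1A2 lie only in columns 7 to 11, and 28 rows carry no dot.

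Sequence upstream of the 4 P450 genes with the largest increases over the parental cells is shown because HNF4A binds DNA directly and the aryl hydrocarbon receptor acts on CYP1 genes through known short elements. The 250 bases before the RefSeq start of each gene (GRCh38.p14) are given 5′ to 3′ on the gene's strand. Capitals mark the letters CAAAGTC in CYP17A1, and GCGTG or its reverse complement CACGC in CYP1A1 and CYP11A1. CYP1A2 held neither.
CYP17A1 (chr10:102837414-102837663, minus strand): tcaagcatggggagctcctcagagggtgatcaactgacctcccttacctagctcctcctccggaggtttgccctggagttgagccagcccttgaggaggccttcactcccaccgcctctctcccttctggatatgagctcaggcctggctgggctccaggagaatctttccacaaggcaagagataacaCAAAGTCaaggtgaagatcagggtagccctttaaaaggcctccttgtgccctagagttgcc
CYP11A1 (chr15:74367647-74367896, minus strand): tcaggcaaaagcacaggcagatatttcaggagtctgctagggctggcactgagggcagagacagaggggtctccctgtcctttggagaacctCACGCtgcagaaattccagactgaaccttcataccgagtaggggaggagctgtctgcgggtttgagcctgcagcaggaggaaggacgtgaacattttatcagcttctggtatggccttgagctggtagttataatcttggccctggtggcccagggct
CYP1A1 (chr15:74725529-74725778, minus strand): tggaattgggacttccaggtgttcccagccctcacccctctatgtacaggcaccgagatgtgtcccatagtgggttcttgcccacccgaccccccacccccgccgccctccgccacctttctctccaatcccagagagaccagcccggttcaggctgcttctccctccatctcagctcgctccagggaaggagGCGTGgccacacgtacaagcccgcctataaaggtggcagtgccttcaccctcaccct
CYP1A2 (chr15:74748595-74748844, plus strand): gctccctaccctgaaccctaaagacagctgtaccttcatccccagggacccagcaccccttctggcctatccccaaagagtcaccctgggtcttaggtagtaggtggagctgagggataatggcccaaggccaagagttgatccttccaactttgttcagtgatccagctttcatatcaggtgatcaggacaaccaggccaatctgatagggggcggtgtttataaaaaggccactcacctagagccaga
Motifs were searched on both strands in the 250 bases before the start of 27305 genes, among them 75 of the 102 members, 32 of the 37 tested members and 8 of the 9 called ones. The letters CAAAGTCCA, an element known for HNF4, occurred in 0.293% of all promoters and in 5 member promoters (CYP2A13, CYP2A6, CYP2A7, CYP2B6 and CYP2C8), all of genes under 1 TPM here. Its first part, CAAAGTC, was chosen after the CYP17A1 sequence had been seen. It occurred in 2.94% of all promoters, in 8 of 75 member promoters and, among the called members, in CYP17A1 alone, 61 bases before the RefSeq start. The letters CAAGGTCA and the direct repeat of AGGTCA with a 1-base gap were in 1.17% and 0.0183% of all promoters and in no member promoter. GCGTG, the core of the xenobiotic response element, was in 31.9% of all promoters, in 20 of 75 member promoters and in 14 of 32 of tested members. Among the called members it was in CYP1A1 (position -57) and CYP11A1 (position -158, reverse strand). A match describes letters only and is no evidence of binding. Sequence beyond these 250 bases was not searched, so a missing match says nothing of elements further away.

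CYP17A1, the steroid 17-alpha-hydroxylase and 17,20-lyase of adrenal and gonad, went from under 0.2 TPM in the parental cells to group means of 11.3 TPM or more in 3 lines. The gene lies on the minus strand at chr10:102830531-102837533 (GRCh38, GENCODE 29). The parental libraries had 0.113, 0.191 and 0.188 TPM. Isoform 1 had 27.9, 17.1 and 26.6 TPM, isoform 2 had 20.4, 15.4 and 20.1 TPM, and isoform 10 had 11.6, 9.38 and 12.9 TPM. All libraries of these 3 lines were far above the parental range, with means of 23.9 TPM ± 5.9, 18.7 TPM ± 2.81 and 11.3 TPM ± 1.79 against 0.164 TPM ± 0.0443 (SD, n = 3 each). Isoforms 8 and 11 were lower, with 3.14, 2.91 and 3.597 TPM and 3.61, 3.24 and 2.93 TPM. Isoform 7 had 1.54, 1.15 and 0.922 TPM and isoform 12 had 0.522, 0.5997 and 0.770 TPM, both also above every parental library. In isoforms 4, 5 and 9 the libraries overlapped the parental range, and in isoform 6 they lay just under it, at 0.103 to 0.111 TPM.

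The log2 fold change of CYP17A1 was 4.39 ± 0.171 (SE) in isoform 1 (limma adjusted p = 4.1e-19). In isoforms 2, 10, 11 and 8 it was 4.07, 3.39, 1.87 and 1.85, with the same SE. With a pseudocount of 0.1 in place of 1 the value of isoform 1 was 6.48. Isoform 3 had 0.851, 2.33 and 2.55 TPM, the lowest in replicate 1. Its CYP17A1 fold change was 1.27 with that library and 1.56 without it, called both ways. Isoform 7 passed the adjusted p (7.57e-05) at 0.91, short of the minimum fold change, and isoform 12 did not pass (0.48, adjusted p = 0.0548). CYP17A1 overlaps WBP1L on the other strand. WBP1L had group means of 24.4 to 28.9 TPM and was at a log2 fold change of -0.16 to 0.08 over the 12 lines, its smallest adjusted p being 0.0831. Of the 31-base words of CYP17A1 transcripts, 4.93% also occur in transcripts of other genes.

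CYP11A1, the mitochondrial enzyme that cleaves the cholesterol side chain in the first step of steroid synthesis, followed another set of lines. It lies on the minus strand at chr15:74337759-74367740. Parental libraries had 0.0852, 0.0495 and 0.124 TPM. Isoform 7 had 8.05, 4.98 and 5.90 TPM, isoform 8 had 5.27, 6.51 and 7.00 TPM, isoform 10 had 5.27, 4.43 and 5.57 TPM, and isoform 11 had 5.97, 4.80 and 5.62 TPM. These 4 lines produce P2 isoforms with the long C-terminus, and their libraries were the only ones above 1 TPM. Group means ran from 5.09 TPM ± 0.59 in isoform 10 to 6.31 TPM ± 1.58 in isoform 7, against 0.0861 TPM ± 0.0371 in the parental cells (SD, n = 3 each). Isoform 12 had 0.229, 0.306 and 0.175 TPM, above the parental libraries but not past the adjusted p (0.19, adjusted p = 0.254). Isoform 9 had 0.0769, 0.130 and 0.0871 TPM, and the P1 lines had between 0 and 0.187 TPM.

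CYP11A1 was called higher in isoform 8 at 2.73 ± 0.105 (log2 fold change, SE; limma adjusted p = 1.08e-18). In isoforms 7, 11 and 10 it was called at 2.73, 2.57 and 2.48. Isoforms 7 and 8, which differ by the insertion, had a difference of 0.00 with a 95% interval of -0.21 to 0.22. Isoform 9 was lower than isoform 7 by a log2 difference of -2.71, and isoform 12 lower than isoform 10 by -2.30, both called. Isoform 7 was higher than isoform 1 by 2.69 and isoform 8 higher than isoform 2 by 2.75. CYP17A1 gave the opposite order in these pairs: isoform 7 was lower than isoform 1 by -3.48 and isoform 8 lower than isoform 2 by -2.21. Only isoforms 8, 10 and 11 had calls for both genes.

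CYP11A1 takes its electrons from ferredoxin (FDX1) and ferredoxin reductase (FDXR), and CYP17A1 and the other microsomal P450s from POR. FDX1 was at 24.4 TPM in the parental cells and its largest log2 fold change was 0.45, in isoform 1. FDXR was at 83.4 TPM in the parental cells and was lower past the adjusted p in 8 lines, down to -0.90 in isoform 1 (44.3 TPM). POR stayed between 73.6 and 96.6 TPM. Of a list of 26 redox partners and further phase I enzymes, 21 were tested and none was called higher in any line. AADAC, an esterase of the endoplasmic reticulum, was called lower in isoforms 1 (-1.06), 2 (-1.44) and 12 (-1.19), and it was the only call of the list. Of all genes, 1.78%, 1.37% and 0.133% were called lower in these lines. Of 13 tested genes of bile acid and steroid metabolism, BAAT, which conjugates bile acids to glycine and taurine, was called higher in isoforms 1, 2, 3, 7, 8, 10 and 11. It went from 0.349 TPM in the parental cells to 25.7 TPM in isoform 1, a log2 fold change of 4.30. This list had 2 genes called higher in isoforms 1 and 2, and 1 in isoforms 3, 7, 8, 10 and 11. Of all genes, 2.74%, 2.36%, 0.653%, 1.12%, 0.94%, 1.13% and 1.05% were called higher in isoforms 1, 2, 3, 7, 8, 10 and 11.

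CYP1A1, the classical target of the aryl hydrocarbon receptor (AHR) and an oxidiser of polycyclic aromatic compounds, was the member called in the most lines. It lies at chr15:74719542-74725610, 352 kb from CYP11A1. Parental libraries had 2.34, 2.69 and 2.01 TPM. The highest levels were those of isoform 7 with 17.5, 20.5 and 15.2 TPM, isoform 11 with 17.5, 18.2 and 15.2 TPM, isoform 10 with 15.9, 17.9 and 15.4 TPM and isoform 8 with 15.2, 14.3 and 15.2 TPM. Isoforms 1 and 2 followed with 10.3, 11.4 and 8.22 TPM and 9.98, 13.1 and 9.13 TPM. The next were isoform 9 with 5.51, 7.32 and 5.35 TPM and isoform 12 with 5.34, 7.36 and 5.06 TPM. All libraries of all 12 lines lay above the parental range, the closest being isoform 6 with 2.70 to 3.13 TPM. Isoform 7 averaged 17.8 TPM ± 2.66 and the parental group 2.35 TPM ± 0.339 (SD, n = 3 each).

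CYP1A1 was called higher in 8 lines, with log2 fold changes of 2.48 ± 0.151 (SE) in isoform 7 (limma adjusted p = 3.81e-14). In isoforms 11, 10, 8, 2, 1, 9 and 12 the values were 2.42, 2.38, 2.25, 1.80, 1.71, 1.07 and 1.04. The calls of isoforms 9 and 12 were close to the minimum: without parental replicate 3 the values were 0.9962 and 0.963, and without replicate 2 of the line itself 0.947 and 0.893. Isoforms 3 (0.70) and 4 (0.49) passed the adjusted p alone, and isoforms 5 (0.41, adjusted p = 0.0663) and 6 (0.25, adjusted p = 0.342) did not. Isoforms 7, 8, 10 and 11 were not separated from one another: the 4 differences tested were between -0.23 and 0.17, and their intervals lay within -0.54 and 0.48. Isoform 7 was above isoform 1 by 0.78 (adjusted p = 0.000121). The lines with the short C-terminus were lower than their long counterparts, isoform 9 against 7 by -1.41 and isoform 12 against 10 by -1.34, both called. Replicate 2 was the highest of its 3 libraries for CYP1A1 in 9 of the 11 numbered groups, the parental cells included. Differences taken within a number kept the direction in these lines, from 1.61 to 1.755 over the 3 numbers in isoform 1.

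CYP1A2, a hepatic P450 that metabolises caffeine, starts 23 kb from the CYP1A1 gene on the other strand (chr15:74748844-74756202). Its parental libraries had 0.660, 0.709 and 0.528 TPM. Isoform 7 had 3.22, 2.87 and 2.57 TPM and isoform 8 had 2.75, 2.53 and 2.59 TPM. Isoform 11 had 1.56, 1.402 and 1.62 TPM and isoform 10 had 1.03, 1.11 and 1.19 TPM. No library of another line passed 1.02 TPM. CYP1A2 was called higher in isoform 7 (log2 fold change 1.25 ± 0.0968 SE, limma adjusted p = 8.74e-12) and isoform 8 (1.15), and passed the adjusted p in isoforms 10 (0.37) and 11 (0.63). Between CYP11A1 and CYP1A2, a stretch chosen after the values were seen, 6 other genes were tested. SEMA7A, a membrane-bound semaphorin, was called higher in isoforms 7 (2.06), 8 (1.35), 10 (1.09) and 11 (1.82), from 3.69 TPM ± 0.379 (SD, n = 3) in the parental cells to 18.6 TPM ± 1.89 (SD, n = 3) in isoform 7. ARID3B, CLK3, EDC3, UBL7 and UBL7-AS1 were called in no line.

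**Figure D4:**
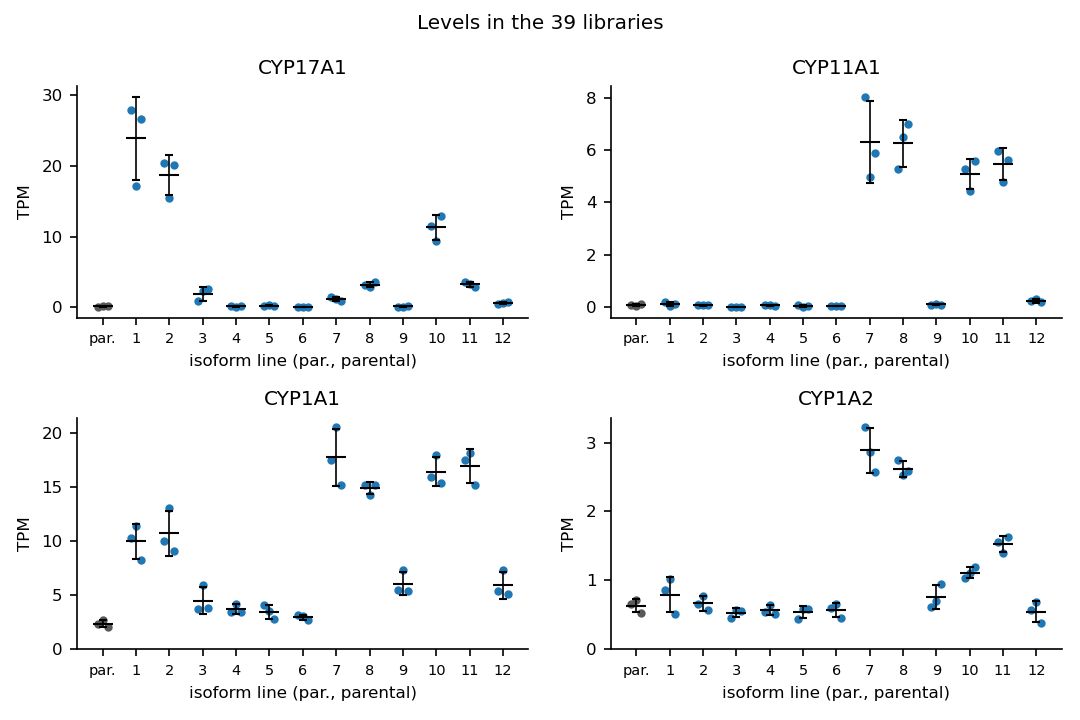
TPM of CYP17A1, CYP11A1, CYP1A1 and CYP1A2 in the 39 libraries by isoform line (points, 3 per group, with the group mean and SD as bars; par., parental). CYP17A1 is highest in isoforms 1, 2 and 10, CYP11A1 is near 0 outside isoforms 7, 8, 10 and 11, and CYP1A1 is above the parental libraries in every line.

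The third gene of the family, CYP1B1, which oxidises estrogens and polycyclic aromatics outside the liver, went the other way. It was at 5.77, 6.46 and 6.06 TPM in the parental cells and at 2.58, 2.99 and 2.70 TPM in isoform 7. It was lower past the adjusted p in 10 lines, from -0.44 in isoform 12 to -0.92 in isoforms 7 and 11, and no line reached the minimum fold change. In isoforms 5 and 6 the libraries overlapped the parental range. Of 8 tested AHR target genes, which include these 3 CYP1 genes and ALDH3A1, isoforms 7 and 8 had 2 called higher and 1 lower, where 2.08% and 1.41% of all genes were called in either direction. The list's median log2 fold change was 0.46 in isoform 7 and 0.44 in isoform 8, against -0.06 and -0.01 for all genes tested. Among the lines where CYP1A1 was called, the list's median ranged from -0.058 (isoform 12) to 0.46 (isoform 7). Both genes called higher in isoforms 7 and 8 were CYP1A1 and CYP1A2, so count and median partly restate members given above. The gene called lower was AHRR, the repressor of the AHR. It went from 14.8 TPM in the parental cells to 3.83 TPM in isoform 8 and was called lower in isoforms 1, 2, 7, 8, 10 and 11 (log2 fold changes of -1.26 to -1.71). AHR itself was at 15.9 to 24.5 TPM, with 1 line past the adjusted p (isoform 10, 0.42), and its partner ARNT was at 20.9 to 26.7 TPM. Of 23 tested regulators of phase I genes, 1 was called higher and 2 lower in each of isoforms 1, 2 and 10, AHRR among the lower ones, where 4.52%, 3.73% and 1.44% of all genes were called. Among them, NR1I3 (the constitutive androstane receptor, a sensor of foreign compounds) was called higher in isoforms 1 (3.49), 2 (2.84), 3 (1.68) and 10 (1.09). Its level was 0.884 TPM in the parental cells and 20.2 TPM in isoform 1.

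CYP2S1, an epithelial P450 inducible by AHR ligands, was about as high in isoforms 1, 7 and 8 but was called in the last 2 only. It lies at chr19:41193049-41207539. The parental libraries had 11.4, 12.4 and 13.2 TPM. Isoform 7 had 25.0, 27.1 and 28.0 TPM, isoform 8 had 24.3, 25.2 and 27.7 TPM and isoform 1 had 26.4, 24.2 and 24.9 TPM, with no overlap with the parental cells. The log2 fold changes were 1.06 ± 0.0662 (SE) in isoform 7 (limma adjusted p = 7.3e-14), and 1.01 and 0.98 in isoforms 8 and 1. The call of isoform 8 was lost without parental replicate 1 (0.954) or without its own replicate 3 (0.953). CYP2S1 was higher past the adjusted p in 7 lines and lower in 1, isoform 6 (-0.23).

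CYP26A1, which clears retinoic acid and is induced by it, was the member called lower. It lies at chr10:93073475-93077890. The parental libraries varied, with 2.07, 1.60 and 2.66 TPM. Isoform 1 had 0.354, 0.219 and 0.373 TPM, isoform 2 had 0.384, 0.300 and 0.319 TPM, isoform 11 had 0.349, 0.364 and 0.439 TPM and isoform 7 had 0.416, 0.394 and 0.496 TPM. In 10 lines every library was below the parental range, and isoforms 5 and 6 overlapped it. The log2 fold changes were -1.23 ± 0.125 (SE) in isoform 1 (limma adjusted p = 8.44e-10). Isoforms 2, 11 and 7 were at -1.21, -1.15 and -1.10, the last at -0.978 and not called without parental replicate 3. Another 6 lines passed the adjusted p at -0.49 to -0.94. CYP26A1 passed the 1 TPM minimum through the parental cells and isoforms 3 to 6, so its calls are not free of that filter. Of the 31-base words of its transcripts, 24.1% are shared with the transcript AL358613.3, so reads may have been split between them.

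CYP26B1 and ALDH1A3 were called in no line. CYP26B1, a second retinoic acid hydroxylase, went from 11.7 TPM in the parental cells to 19.4 TPM in isoform 1 (0.68) and 8.28 TPM in isoform 6 (-0.45), with 3 lines past the adjusted p in each direction. ALDH1A3, which makes retinoic acid, was lower past the adjusted p in 8 lines, most in isoform 6 (123.6 TPM, -0.64), and higher in isoform 9 (262.4 TPM, 0.44). Of 13 tested retinoid and vitamin D partners, DHRS3, which reduces retinaldehyde to retinol, was called higher in 9 lines, all but isoforms 4, 5 and 6, from 13.7 TPM in the parental cells to 119.2 TPM in isoform 2 (3.04). STRA6, the retinol uptake receptor, was called lower in isoforms 1, 2, 7, 8, 9 and 11 (-1.13 to -1.5). RBP2, the intestinal retinol-binding protein, was called higher in isoforms 1 (3.18), 2 (2.48) and 10 (2.19). The list's medians lay between -0.096 (isoform 4) and 0.098 (isoform 10). It had 2 genes called higher in isoforms 1, 2 and 10 (2.74%, 2.36% and 1.13% of all genes). In isoforms 3, 7, 8, 9, 11 and 12 it had 1 (0.653%, 1.12%, 0.94%, 0.387%, 1.05% and 0.44%). Called lower were 2 in isoforms 1, 7, 9 and 11 (1.78%, 0.96%, 0.44% and 0.653%). In isoforms 2 and 8 there was 1 called lower (1.37% and 0.473%).

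Of the vitamin D enzymes, CYP27B1 was lower past the adjusted p in isoforms 1 and 2 (-0.28 and -0.33) and higher in 4 lines (0.17 to 0.31), and CYP2R1 was higher in 3 lines (at most 0.27). CYP24A1, which degrades vitamin D, had a mean of 0.855 TPM over all libraries and was outside the main test. It had 1.11, 1.42 and 1.35 TPM in the parental cells, 0.114, 0.129 and 0.137 TPM in isoform 2, 0.113, 0.133 and 0.129 TPM in isoform 4, and 3.17, 2.70 and 2.85 TPM in isoform 8. When all 39252 genes with any value were fitted, CYP24A1 was called lower in isoforms 2 and 4 (-1.02 in both, adjusted p = 1.8e-10 and 2.44e-09) and was at 0.77 in isoform 8, short of the minimum. It was the only member under 1 TPM called in that fit. The other members under 1 TPM with a group mean of at least 1 TPM were CYP39A1 (1.47 TPM in isoform 5), CYP4F11 (1.24 TPM in isoform 4), CYP2D7 (1.17 TPM in isoform 5), AKR1B10 (1.06 TPM in isoform 3) and CYP2D6 (1.03 TPM in the parental cells).

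ALDH3B1, which oxidises long-chain aldehydes from membrane lipids, was the ALDH with the most calls. It lies at chr11:68008578-68029282. The parental libraries had 7.68, 6.93 and 7.26 TPM. Isoform 2 had 21.5, 22.1 and 22.4 TPM, isoform 1 had 21.0, 18.3 and 18.8 TPM, isoform 11 had 16.4, 15.9 and 14.9 TPM and isoform 7 had 14.6, 14.6 and 14.5 TPM. Isoforms 4 and 5 overlapped the parental range, and the other 10 lines lay above it. The log2 fold change was 1.47 ± 0.0699 (SE) in isoform 2 (limma adjusted p = 4.42e-17), and 1.30 and 1.01 in isoforms 1 and 11. In isoform 11 it was 0.981 without parental replicate 2 and 0.983 without its own replicate 1, so that call was lost. Isoform 7 was at 0.91, and 10 lines in all passed the adjusted p.

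ALDH3A1, a detoxifier of lipid aldehydes and another gene known to respond to the AHR, was highest in isoform 2. It lies at chr17:19737984-19748943. The parental libraries had 1.70, 1.224 and 1.45 TPM, isoform 2 had 4.33, 4.69 and 4.20 TPM and isoform 1 had 3.68, 3.77 and 2.95 TPM. It was called in isoform 2 (1.14 ± 0.0873 SE, limma adjusted p = 3.05e-12), and 8 lines passed the adjusted p, with isoforms 1 and 7 at 0.86. ALDH3A2, the fatty aldehyde dehydrogenase, was higher past the adjusted p in 10 lines, at most 0.62 in isoform 1 (75.5 TPM in parental cells and 116.4 TPM in isoform 1). ALDH5A1, of GABA breakdown, was higher in 4 lines (at most 0.49). ALDH7A1, of lysine breakdown, was lower in 8 lines (down to -0.56 in isoform 1) and higher in isoform 5 (0.25). ALDH6A1 passed the adjusted p in no line, and ALDH1B1, ALDH4A1, ALDH9A1, ALDH16A1 and ALDH18A1 had log2 fold changes between -0.38 and 0.18.

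AKR1C3, which reduces ketosteroids and prostaglandin D2, was the called member of the AKR family. It lies at chr10:5035354-5107686. The parental libraries had 0.886, 1.05 and 0.824 TPM. Isoform 1 had 5.03, 3.19 and 4.34 TPM, isoform 2 had 3.26, 2.71 and 3.29 TPM, isoform 4 had 4.11, 3.07 and 2.10 TPM and isoform 10 had 2.55, 2.36 and 2.32 TPM. Libraries of isoforms 1, 2, 4, 5, 10, 11 and 12 lay above the parental range, and those of isoform 7 (0.510, 0.635 and 0.522 TPM) and isoform 9 lay below it. The log2 fold change was 1.42 ± 0.140 (SE) in isoform 1 (limma adjusted p = 5e-10). Isoforms 2 and 4 were at 1.09 and 1.06, the last at 0.889 and not called without the isoform 4 library at 4.11 TPM. Isoform 7 was lower than isoform 1 by -1.72, though its own difference from the parental cells did not pass (-0.30, adjusted p = 0.0882). AKR1C3 shares 5.04% of its 31-base words with AKR1C2, a close relative.

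AKR1B1, the most abundant member, fell without reaching the minimum fold change. The parental libraries had 252.1, 255.4 and 248.3 TPM, isoform 1 had 131.6, 134.6 and 122.7 TPM and isoform 2 had 138.4, 149.1 and 137.5 TPM. It was lower past the adjusted p in 9 lines, from -0.28 (isoforms 9 and 12) to -0.95 (isoform 1), and every library of 11 lines was below the parental range. AKR7A2 and AKR7A3, aflatoxin aldehyde reductases that lie in 1 cluster with AKR7L, were higher past the adjusted p in 6 and 5 lines. AKR7A2 went from 65.4 TPM to 102.4 TPM in isoform 1 (0.64), and AKR7A3 from 0.855 to 2.64 TPM (0.98, under the minimum). AKR7A3 shares 34.8% of its words with other genes, most with AKR7L, which was at 2.65 TPM in the parental cells and 5.11 TPM in isoform 1, so the values of both are uncertain. Of 18 tested NRF2 target genes, a stress-response group with which several AKR and ALDH genes are commonly listed, isoform 1 had 4 called higher and 0 lower (2.74% and 1.78% of all genes), with a median of 0.34 against -0.11 for all genes. SRXN1, which repairs peroxiredoxins, was called higher in 7 lines (up to 2.05 in isoform 1) and HMOX1, the heme-degrading oxygenase, in isoforms 1, 2, 3, 7 and 10 (up to 2.45 in isoform 1).

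**Figure D5:**
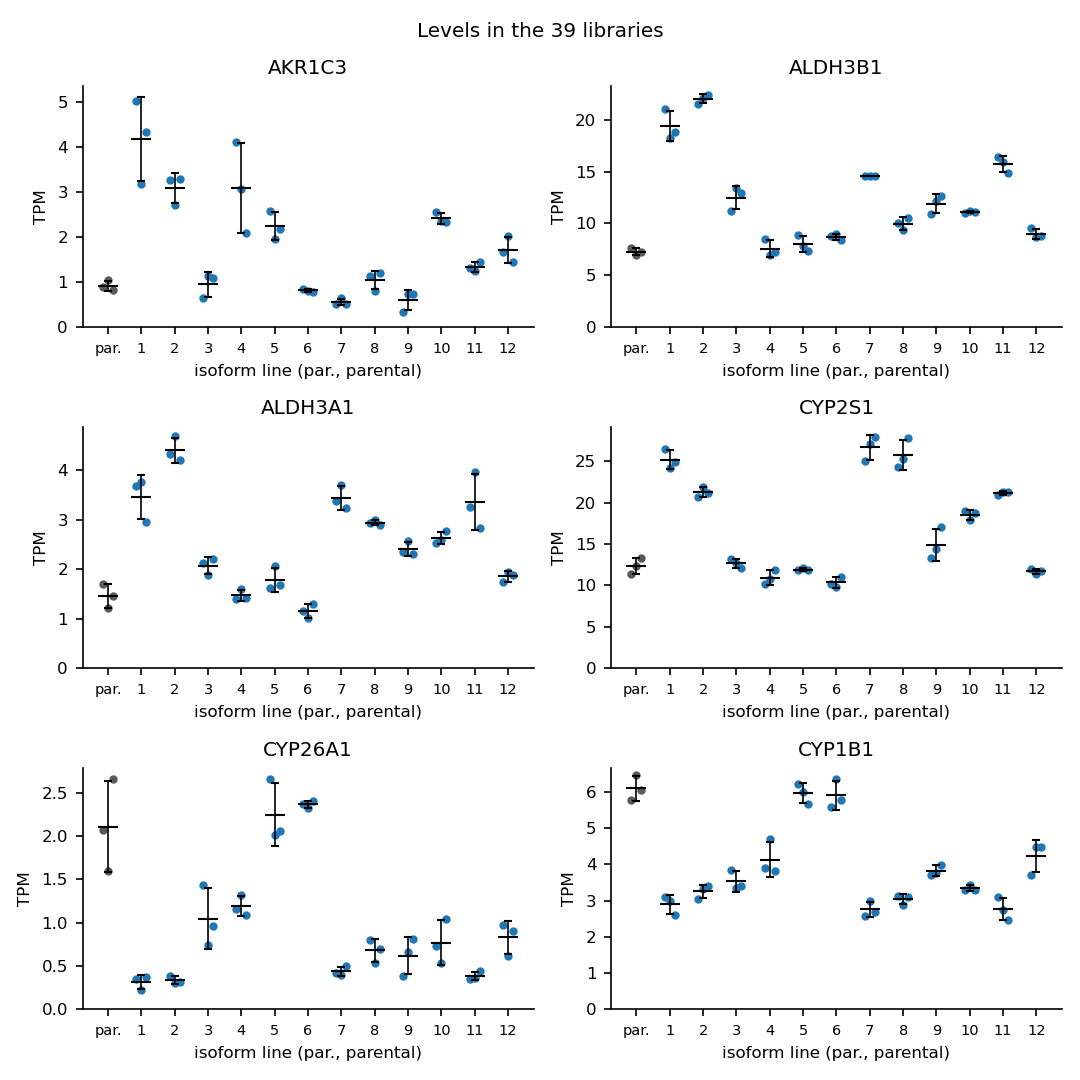
TPM of AKR1C3, ALDH3B1, ALDH3A1, CYP2S1, CYP26A1 and CYP1B1 in the 39 libraries by isoform line (points, 3 per group, with the group mean and SD as bars; par., parental). ALDH3B1 and ALDH3A1 are highest in isoform 2, CYP2S1 in isoforms 1, 7 and 8, and CYP26A1 and CYP1B1 are at the parental level in isoforms 5 and 6 and below it in the other lines.

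The remaining members were called in no line. ADH5 stayed between 136.2 and 161.8 TPM, and AKR1A1 between 93.6 and 121.6 TPM. CES2, the intestinal carboxylesterase that activates irinotecan, was higher past the adjusted p in isoforms 1, 10 and 11 (at most 0.36, 27.5 TPM in isoform 10 against 21.2 TPM in the parental cells), and CES3 in isoform 1 (0.51). FMO4, a flavin monooxygenase, was lower past the adjusted p in isoform 1 (-0.21), but did not pass it in the authors' deposited table. AKR1E2 was lower in isoforms 1, 2, 3 and 10 (down to -0.52). CYP4V2, an omega-hydroxylase of fatty acids, was higher in isoforms 4, 5, 6 and 10 and lower in 7, 8 and 9 (-0.48 to 0.48), and CYP4F22, which acts on very long fatty acids of skin, higher in 3 lines and lower in 4. CYP2J2 and CYP20A1 passed the adjusted p in no line, with log2 fold changes within -0.08 and 0.10. CYP2U1 was lower past the adjusted p in 4 lines, at most by -0.29. After the libraries were scaled by the median of gene ratios, CYP2U1 and AKR1E2 were each lower past the adjusted p in 2 lines.

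Direct contrasts between lines show where 2 isoforms differed from each other. In 17 contrasts, each between isoforms that differ in 1 named part, there were 33 calls on 9 members, and 7.41% of all genes were called in at least 1 of them. CYP17A1, CYP11A1, CYP1A2, AKR1C3, AKR7A3 and CYP26A1 passed the 1 TPM minimum through the groups where they were high. Shares of members called between lines therefore do not stand for the family. The exon 1B isoforms were set against their P1 counterparts in 3 contrasts. Isoform 4 against 1 had 4 members called lower, against 4.49% of all genes: CYP17A1 (-4.36), ALDH3B1 (-1.25), CYP1A1 (-1.2209) and CYP2S1 (-1.14). Isoform 5 against 2 also had 4 called, against 4.03%, with CYP17A1 (-3.98), CYP1A1 (-1.39) and ALDH3B1 (-1.36) lower and CYP26A1 higher (1.28). Isoform 6 against 3 had 1 (CYP17A1, -1.34, and -1.64 without replicate 1 of isoform 3), against 0.7%.

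The short C-terminus was set against the long one in 4 contrasts, and all calls were lower in the short form. Isoform 3 against 1 had 4, against 1.45% of all genes: CYP17A1 (-3.12, and -2.82 without replicate 1 of isoform 3), AKR1C3 (-1.41 and -1.28), AKR7A3 (-1.05 and -0.977) and CYP1A1 (-1.01 and -0.914), so that the last 2 fell under the minimum without that library. Isoform 9 against 7 had CYP11A1, CYP1A1 and CYP1A2 (-1.15), against 0.42%. Isoform 12 against 10 had CYP17A1 (-2.91), CYP11A1 and CYP1A1, against 0.533%, and isoform 6 against 4 had AKR1C3 (-1.14, and -0.97 without the highest isoform 4 library), against 0.493%. The insertion gave 1 call in 4 contrasts, CYP17A1 lower in isoform 11 than in 10 (-1.52, background 0.2%). CYP17A1 in isoform 2 against 1 was at -0.32, with an interval of -0.67 to 0.03. In isoform 8 against 7 it pointed the other way, with means of 3.22 TPM and 1.20 TPM, and was not called. Isoform 2 against 1, 5 against 4 and 8 against 7 had 0 members called, against 0.347%, 0.353% and 0.227% of all genes, and 18, 13 and 17 members had an unadjusted limma p under 0.05. The authors' tables hold no comparison between lines.

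P2 isoforms against P1 isoforms gave calls in both directions. Isoform 7 against 1 had 4 (background 1.42%): CYP11A1 and CYP1A2 (1.12) higher, CYP17A1 and AKR1C3 lower. All of these had parental means under 1 TPM, so this count does not stand for the family. Isoform 8 against 2 had 5 (1.54%), with CYP11A1 and CYP1A2 (1.12) higher and CYP17A1, ALDH3B1 (-1.07) and AKR1C3 (-1.0) lower. Isoform 9 against 3 had 1 (0.56%), CYP17A1 at -1.29, and at -1.59 without replicate 1 of isoform 3. Between the 2 N-termini of the P2 isoforms, isoform 10 was above isoform 7 for CYP17A1 (2.48) and AKR1C3 (1.13), against 0.76% of all genes. Isoform 11 against 8 and 12 against 9 had 0 called, against 0.173% and 0.54%, with 12 and 14 members at an unadjusted limma p under 0.05. The AKR1C3 call of isoform 8 against 2 was lost without either of replicates 1 and 3 of isoform 2 or replicate 2 of isoform 8 (-0.915 to -0.970).

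Each isoform is 1 line, so statements on isoform classes were fitted on the 12 line means with limma. The 1 TPM minimum limits CYP17A1, CYP11A1 and AKR1C3 here as it does in the contrasts between lines. Isoforms 4 to 6 were lower than isoforms 1 to 3 for CYP17A1 (-3.23 ± 0.572 SE, adjusted p = 0.00463), ALDH3B1 (-1.03, adjusted p = 0.00702) and CYP1A1 (-1.02, adjusted p = 0.00833), against 1.95% of all genes called. Isoforms 7 to 9 were lower than 1 to 3 for CYP17A1 (-2.33, adjusted p = 0.0338) and AKR1C3 (-1.0, adjusted p = 0.0446), against 0.52%. CYP11A1 in isoforms 7 to 9 against 1 to 3 was at 1.85 with an adjusted p of 0.0579 and was not called, its isoform 9 line being at the parental level. The calls of AKR1C3 and of CYP1A1 were close to the minimum fold change: single libraries of isoforms 1, 2, 3, 7, 8 or 9 moved AKR1C3 to between -0.960 and -0.995, with adjusted p of up to 0.0601, and single libraries of isoforms 1, 2, 3 or 5 moved CYP1A1 to between -0.958 and -0.988. Isoforms 10 to 12 against 7 to 9, the insertion and the short C-terminus had 0 members called by limma, with 6, 1 and 16 at an unadjusted p under 0.05, against 0%, 0% and 0.00667% of all genes called.

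The authors' deposited table gave an adjusted p below 0.05 and the same sign for all 33 calls against the parental cells, and 31 of them also passed the minimum fold change there. Of 192 pairs of member and line past the adjusted p, 0 had the other sign after the libraries were scaled by the median of gene ratios, and 13 no longer passed. This scaling moved the median of all genes in isoform 1 from -0.107 to -0.007.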

How the data were processed

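RNA-seq was analysed in 39 libraries of 13 groups. Per the labels' protocols, RNA was poly(A)-enriched and libraries were made with a directional kit. The submitters' processing notes name Trimmomatic 0.36, FastQC 0.11.5, kallisto 0.44.0, DESeq2 1.22.2 and the build GRCh38.p12. The authors deposited 13 tables of 45446 rows with TPM per library. For each line, per the file headers, there are also the authors' log2 fold change with its standard error, the score of their test, raw and adjusted p-values, and a mean of normalised counts. These columns were only compared with the calls. TPM does not show how deeply a library was read. The authors' mean normalised counts, a signal of depth, summed to 50609338 to 56136330 per table, so no counting interval was computed.

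HNF4A rows were summed, leaving 45435 rows. Log2(TPM + 1) was fitted with limma 3.58.1 in R 4.3.3 (mean-variance trend, 13 group coefficients, 26 residual degrees of freedom) for the 15003 genes averaging 1 TPM or more. Benjamini-Hochberg adjustment ran over these genes within each comparison. Calls needed an adjusted p below 0.05 and a log2 fold change of 1 or more in either direction. Another 17 contrasts compared lines, and an additive model on line means (N-terminal and C-terminal form) compared classes. The fit was tested on simulated data.

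The members and gene lists were chosen with earlier results of these data known. Named are HNF4A, every member at 1 TPM or more, members under 1 TPM with a group mean of at least 1 TPM, and listed genes called in at least 3 lines. FDX1, FDXR, POR, AHR and ARNT are given for their known roles, and SEMA7A, WBP1L, CD68 and AKR7L were chosen after their values were seen. Coordinates are those of GENCODE 29 by symbol, and upstream sequences those of RefSeq (GRCh38.p14). Shared words are 31-base stretches of transcripts. The columns of isoforms 4 and 5 carry no replicate number. Alternatives were the pseudocount, the filter, scaling, the minimum fold change, a fit of 2 groups, the replicate number as a block, and each library left out.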

Additional observations from a re-analysis of the deposited data

Results flagged for a closer look

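Each of the following members had effects against the parental cells that differed between 2 lines by a direct limma contrast, and the pair with the largest difference among the 17 contrasts run is given as a log2 difference. CYP17A1 was lower in isoform 4 than in isoform 1 by -4.36. CYP11A1 was higher in isoform 8 than in isoform 2 by 2.75. AKR1C3 was lower in isoform 7 than in isoform 1 by -1.72, CYP1A1 lower in isoform 9 than in isoform 7 by -1.41, and ALDH3B1 lower in isoform 5 than in isoform 2 by -1.36. CYP26A1 was higher in isoform 5 than in isoform 2 by 1.28. CYP1A2 was lower in isoform 9 than in isoform 7 by -1.15, CYP2S1 lower in isoform 4 than in isoform 1 by -1.14, and AKR7A3 lower in isoform 3 than in isoform 1 by -1.05. AKR7A3 fell under the minimum fold change without replicate 1 of isoform 1 (-0.946) or of isoform 3 (-0.977). Single libraries were not tested as outliers in these groups of 3.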

How the results depend on the processing

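The 33 calls kept their direction and stayed called with a pseudocount of 0.1, without a filter, after scaling and in fits of 1 line and the parental cells. With a filter of 5 TPM, 13 of them were tested and all 13 stayed. Counts moved more. With a pseudocount of 0.1 they were 9, 1, 9, 2, 5, 8 and 3 in isoforms 1, 5, 7, 9, 10, 11 and 12, and 9 between classes. Without a filter there were 2 in isoform 4 and 3 between classes. With a filter of 5 TPM, which left fewer members, there were 2 in isoforms 1, 2, 7, 8 and 11, 1 in isoform 10, 0 in isoforms 3 and 4, 9 between lines and 2 between classes. Without a minimum fold change the counts in isoforms 1 to 12 were 30, 23, 13, 10, 7, 8, 22, 18, 11, 23, 17 and 10, with 257 members called between lines and 22 between classes. The authors' deposited comparison gave 8 in isoforms 1 and 7 and 0 in isoforms 4 and 12. The cause of these shifts was not tested where no filter or threshold sets it. Leaving out 1 library gave 5 to 7 calls in isoform 1, 4 to 6 in isoform 7, 4 to 5 in isoforms 8 and 11, 0 to 2 in isoform 9, and 0 to 1 in isoforms 4 and 12. The counts of isoforms 2 (6), 3 (1), 5 (0), 6 (0) and 10 (3) did not move. There were 31 to 34 between lines and 3 to 6 between classes.

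Same-numbered libraries deviated together weakly (correlations with the parental library of -0.047 to 0.187, median 0.045). Of the 30 libraries of numbered lines, 19 correlated best with the parental library of their own number. The main fit did not use the numbers as pairs, so any shared deviation stayed in its spread. For CYP1A1, 1 number was highest in 9 of 11 numbered groups. For the other called members the most frequent number was highest in 4 (AKR1C3) to 7 (ALDH3A1 and CYP26A1) of them. With the replicate number as a block in the 33 numbered libraries, 5, 6, 1, 0, 5, 5, 1, 3, 5 and 1 members were called in isoforms 1, 2, 3, 6, 7, 8, 9, 10, 11 and 12, as without it in the same libraries, a fit added after seeing the data. TPM gives no depth per library. For a member near 1 TPM, CYP1A2, the authors' deposited table gives mean normalised counts of 55.5 to 170.9 over the 12 comparisons, so counting error is part of the spread of such members.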
